A study of Mus musculus with 12 samples.

Results

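The transcripts of 9 genes of the BCL2 family and the apoptotic initiator caspases were followed through the 4 groups of the series: the anti-apoptotic Bcl2, Bcl2l1 (which encodes BCL-xL) and Mcl1, the pore-forming Bax and Bak1, the BH3-only Bid and Bad, and the initiator caspases Casp8 and Casp9. They were chosen by name from the 34745 genes of the expression table, each name matched 1 row, and all 9 passed the filter on low counts in every comparison. The libraries came from MLE-12, an immortalised mouse cell line with features of alveolar type II epithelium, 3 libraries in each group, at 24 h. The LPS group had received 100 ng/mL LPS (bacterial lipopolysaccharide) in 21% O2, and the LPS + M2-Exo group had also received 10 μg/mL M2-Exo, exosomes from an alveolar macrophage line polarised with IL-4. The hyperoxia group (Hyp) was kept in 85% O2 without LPS, and the Hyp + M2-Exo group had the same oxygen and dose of M2-Exo. No group was left uninjured, and the labels do not say that the replicates were separate cultures, so p-values measure only the spread between these libraries, which may be technical. MLE-12 carries the SV40 large T antigen, which binds p53, a regulator of several of these genes.

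In the intrinsic pathway of apoptosis, BAX and BAK1 form pores in the outer mitochondrial membrane and release cytochrome c, which assembles with APAF1 and activates caspase 9. BCL2, BCL-xL and MCL1 hold BAX and BAK1 in check, and BH3-only proteins such as BID and BAD bind to the anti-apoptotic proteins or, for BID, also act on BAX and BAK1 directly. Caspase 8 is activated at death receptors and cuts BID, which links the extrinsic pathway to the mitochondrion. The study measured BCL2 and BAX as markers of apoptosis, and the question put to these data was whether the transcripts of the family differed with M2-Exo within either injury, and between the injuries. Much of the control of these proteins (phosphorylation of BAD, cleavage of BID and the caspases, the turnover of MCL1) leaves no trace in transcript counts.

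What joins the 7 BCL2 family members is the BH3 core, the stretch by which they bind one another, and it is shown here as the coding sequence that the reads come from. A leucine codon, 3 codons of any kind, a glycine or serine codon and an aspartate codon were searched for in the GENCODE M21 coding sequences (GRCm38), and each of the 7 held 1 match. The same pattern was found in 25.5% of 21972 coding genes, so that a match by itself is a description and no site. Each line gives 42 coding bases, with 4 codons on either side of the core and the codons of leucine, glycine or serine, and aspartate in capitals.
Bcl2: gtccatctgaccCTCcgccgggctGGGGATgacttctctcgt
Bcl2l1: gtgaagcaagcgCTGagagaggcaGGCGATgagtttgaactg
Mcl1: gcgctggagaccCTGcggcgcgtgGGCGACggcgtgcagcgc
Bax: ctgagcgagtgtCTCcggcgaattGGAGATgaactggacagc
Bak1: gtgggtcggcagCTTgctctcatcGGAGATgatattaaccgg
Bid: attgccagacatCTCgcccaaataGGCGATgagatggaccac
Bad: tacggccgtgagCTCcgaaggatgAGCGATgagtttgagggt
Of the 7 cores, 6 had a glycine codon, and Bad had a serine codon in its place. The windows lay within single exons: Bcl2 at chr1:106712572-106712613 (- strand), Bcl2l1 at chr2:152829694-152829735 (- strand), Mcl1 at chr3:95659424-95659465 (+ strand), Bax at chr7:45465994-45466035 (- strand), Bak1 at chr17:27022528-27022569 (- strand), Bid at chr6:120897286-120897327 (- strand) and Bad at chr19:6950780-6950821 (+ strand).

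For the caspases the active site was searched for as codons of glutamine, alanine and cysteine, 1 codon of any kind and glycine, a pattern that 0.373% of the coding genes held. Both matched once, and the capitals mark the fixed codons of the 39 bases shown.
Casp8: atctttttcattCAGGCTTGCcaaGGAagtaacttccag
Casp9: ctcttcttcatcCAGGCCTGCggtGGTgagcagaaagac
The Casp8 window lay in exon 8 at chr1:58844601-58844639 (+ strand), and the Casp9 window crossed from exon 6 to exon 7 between chr4:141807235 and chr4:141811549 (+ strand).

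Total counts lay between 18700207 and 19185116 in LPS, 16021833 and 18505941 in LPS + M2-Exo, 22035335 and 24074616 in Hyp, and 20231632 and 23414010 in Hyp + M2-Exo. The least covered value of the 9 genes was 213 counts (Bcl2 in Hyp + M2-Exo replicate 3). The labelled cell type was checked against its markers. Of 11 alveolar type II markers, Abca3 (135 to 203 CPM over all libraries), Nkx2-1 (171 to 174 in LPS and 37.8 to 41.8 in Hyp) and Sftpc (21.5 to 23.4 in the LPS groups and 10.5 to 13.9 in the hyperoxia groups) were present in every library, whereas Sftpa1 and Sftpd were listed at no more than 1 count. Of 6 epithelial markers, Krt19 (479 to 521 CPM in LPS and 733 to 745 in Hyp), Krt8 and Cdh1 were above 1 CPM in every group, while Epcam was listed at no more than 21 counts and Krt18 at no more than 4. Of 12 macrophage markers, 9 were above 1 CPM in LPS and 8 in Hyp, and their summed level was 408 to 455 CPM in LPS, 320 to 368 in LPS + M2-Exo, 108 to 114 in Hyp and 84.9 to 126 in Hyp + M2-Exo, with Ptprc, Adgre1 and Csf1r detected in all 12 libraries and Arg1 at 0 in LPS. The summed level of 5 fibroblast markers, nearly all of it Dcn, was 770 to 837 CPM in the LPS groups and 329 to 359 in the hyperoxia groups.

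Set side by side as FPKM, which divides by gene length, the family fell into a high, a middle and a low tier in every group. Mcl1 and Bax made up the high tier: Mcl1 stood at 79.0 ± 2.69 FPKM in LPS and 48.1 ± 1.41 in Hyp, and Bax at 74.8 ± 4.64 in LPS and 106 ± 1.84 in Hyp (mean ± SD, n = 3). In LPS the ranges of Mcl1 (76.3 to 81.7) and Bax (70.8 to 79.9) overlapped, while in Hyp the lowest Bax value (104) was above the highest Mcl1 value (49.7). Bak1, Casp8 and Bid formed the middle tier at 13.4 to 23.0 FPKM over all 12 libraries, and in LPS the ranges of Bak1 (17.8 to 20.1) and Casp8 (17.7 to 19.7) overlapped. Bad (5.62 to 8.18) and Casp9 (3.39 to 6.23) followed, and Bcl2 (1.05 to 2.59) and Bcl2l1 (1.67 to 3.42) were lowest. The last 2 overlapped in LPS (2.11 to 2.47 and 1.88 to 2.44), while in Hyp Bcl2l1 (1.76 to 1.85) lay above Bcl2 (1.29 to 1.39). Among the anti-apoptotic members, Mcl1 was thus the most abundant transcript per length in all 12 libraries. The plot of FPKM by library shows these tiers.

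**Figure D1:**
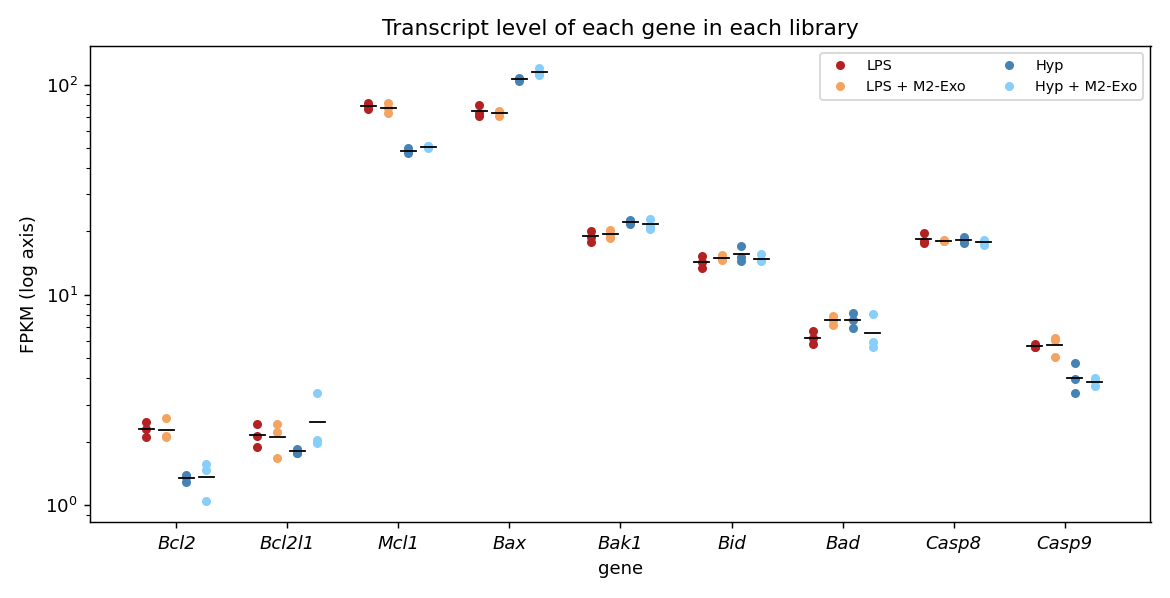
FPKM of each of the 9 genes in each library (log axis), with points for the 3 libraries of a group coloured by group and a black bar for the group mean. Mcl1 and Bax lie above all other members on this scale, overlapping in LPS and with Bax above Mcl1 in both hyperoxia groups.

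The order depends in part on the lengths the authors used. The length implied by the FPKM was 869 bases for Bax and 11905 for Bcl2l1, against merged exons of 1576 and 4586 bases in GENCODE M21. Per length of the merged exons, an alternative chosen after seeing the data, Bax stood at 41.2 ± 2.56 in LPS and 58.5 ± 1.01 in Hyp and Mcl1 at 93.1 ± 3.17 and 56.7 ± 1.66 (mean ± SD, n = 3), so that Mcl1 was above Bax in LPS and their ranges met in Hyp. On that scale Bax (39.1 to 44.0) lay close above Bak1 (32.5 to 36.8) in LPS. Bcl2l1 (4.89 to 6.32) lay above Bcl2 (2.31 to 2.71) in LPS, where the FPKM of the 2 overlapped, and in Hyp + M2-Exo it overlapped with Casp9 (5.09 to 8.88 against 5.34 to 5.84). The order of these members thus depends on the length used, while Mcl1 stayed above Bcl2 and Bcl2l1 on both scales. Differences of 1 gene between groups do not depend on its length. With no strand recorded by the kit, reads from overlapping genes on opposite strands cannot be told apart: 25.5% of the exon bases of Bak1 were shared with Ggnbp1, 20.5% of those of Bad with Gpr137, 17.7% of those of Bid with Bcl2l13, 6.09% of those of Bcl2 with D630008O14Rik and 1.81% of those of Casp9 with Cela2a and Ctrc. Bax shared 12.2% with Gm45808, which lies on the same strand, so that strand would not separate them. Bcl2l1, Mcl1 and Casp8 shared none. The table gave Bcl2l13 up to 7490 counts, Ggnbp1 up to 392 and Gpr137 up to 324.

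With M2-Exo added to LPS, none of the 9 transcripts was called. By edgeR's quasi-likelihood test 0 of 9 had an adjusted p under 0.05 (background 0.187% of the 13353 genes tested), 0 by DESeq2, and 1 had an unadjusted p under 0.05 (background 11.1%). Bcl2 was at 23.7, 25.4 and 21.9 CPM in LPS replicates 1 to 3 and at 21.8, 27.0 and 22.1 in LPS + M2-Exo. The groups overlapped, the log2 fold change was -0.0030 ± 0.10 (SE) with an adjusted p of 0.996, and its 95% confidence interval ran from a fold of 0.848 to 1.17. Bax was at 63.3, 71.2 and 66.2 CPM without and 66.8, 63.7 and 66.2 with M2-Exo. Its log2 fold change was -0.030 ± 0.056 (SE), adjusted p = 0.887, with an interval of 0.896 to 1.07 fold. For both of these markers the interval thus stayed between 0.848 and 1.17 fold.

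Bad, whose protein binds BCL2 and BCL-xL when dephosphorylated, gave the smallest p in the LPS comparison. It was at 21.4, 22.9 and 25.0 CPM in LPS and at 29.3, 28.2 and 26.5 in LPS + M2-Exo, so the groups did not overlap. This held for 1 of the 9 genes (background 17.2%). The log2 fold change was 0.28 ± 0.078 (SE), or 1.21 fold (95% confidence interval 1.07 to 1.38), with an unadjusted p of 0.00776 in edgeR and an adjusted p of 0.272, which did not pass. Over the 13 alternatives the log2 fold change lay between 0.22 and 0.34 and the adjusted p between 0.232 and 0.591. The other 6 members had log2 fold changes between -0.023 (Mcl1) and 0.063 (Bid).

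With M2-Exo added to hyperoxia, again 0 of 9 were called by edgeR (background 0.101% of 13815 genes) and 0 by DESeq2, with 1 at an unadjusted p under 0.05 (background 8.48%). Bcl2 was at 13.3, 12.5 and 13.5 CPM in Hyp and at 14.3, 15.2 and 10.2 in Hyp + M2-Exo. Replicate 3 of Hyp + M2-Exo was below and its other libraries above all Hyp libraries, and the log2 fold change was 0.013 ± 0.14 (SE), adjusted p = 0.981, with an interval of 0.806 to 1.26 fold. Bax was at 87.9, 90.7 and 89.0 CPM in Hyp and at 94.4, 95.8 and 101 in Hyp + M2-Exo. All 3 libraries with M2-Exo were higher, by a log2 fold change of 0.12 ± 0.043 (SE), or 1.09 fold, with an unadjusted p of 0.0262 and an adjusted p of 0.567. For Bax, then, the 95% confidence interval reached from 1.01 to 1.16 fold. Over the 13 alternatives the Bax log2 fold change lay between 0.084 and 0.14 and the adjusted p between 0.284 and 0.962.

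In 3 of the 9 genes, Bax, Bcl2l1 and Mcl1, the hyperoxia groups did not overlap (background 16%), and all 3 were higher with M2-Exo. Bcl2l1 was at 21.4, 20.3 and 20.4 CPM in Hyp and at 23.6, 22.7 and 39.5 in Hyp + M2-Exo. Its log2 fold change of 0.46 ± 0.20 (SE), adjusted p = 0.589, came largely from replicate 3, and without that library it was 0.15 (adjusted p = 0.659). Mcl1 was at 186, 183 and 193 CPM in Hyp and at 200.3, 195 and 198 in Hyp + M2-Exo, and its log2 fold change was 0.071 ± 0.033 (SE), adjusted p = 0.602. The Mcl1 libraries thus lay close together on both sides, at a coefficient of variation of 2.79% and 1.3%.

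Replicate 3 of Hyp + M2-Exo stood apart in 3 members, with the highest Bcl2l1 and the lowest Bcl2 of the 12 libraries and with a Bad level of 28.1 CPM against 20.7 and 19.5 in the other libraries of its group. The same library also had the highest Bax (101 CPM) and the lowest Casp8 (61.8 CPM) of the 12. Bad in Hyp was at 24.2, 28.3 and 26.1 CPM, and its log2 fold change with M2-Exo was -0.21 ± 0.14 (SE), adjusted p = 0.67, or -0.39 (adjusted p = 0.588) without replicate 3. Casp8 and Casp9 had log2 fold changes of -0.036 ± 0.048 and -0.063 ± 0.12 (SE) with M2-Exo in hyperoxia and of -0.022 ± 0.051 and 0.029 ± 0.082 in LPS, none of which passed. The plot of CPM by library shows replicate 3 of Hyp + M2-Exo as the triangle away from its group in Bcl2, Bcl2l1 and Bad.

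**Figure D2:**
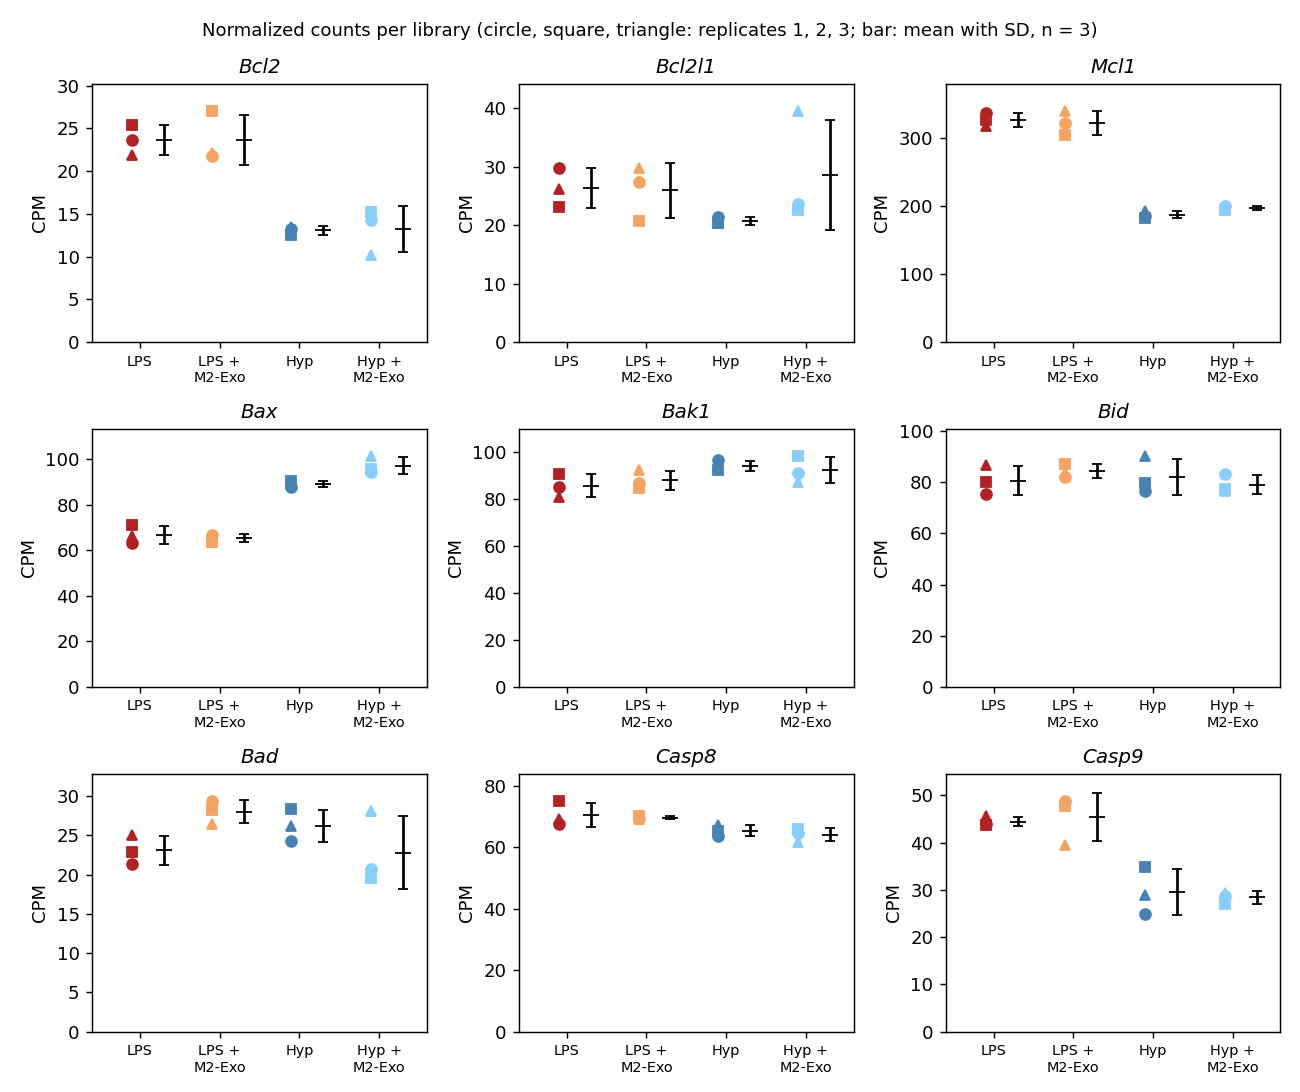
Normalized counts (CPM) of the 9 genes, 1 panel a gene, with circle, square and triangle for replicates 1, 2 and 3 of each group and a bar for the mean with its SD (n = 3). Bcl2, Mcl1 and Casp9 are higher and Bax is lower in the LPS groups than in the hyperoxia groups, and replicate 3 of Hyp + M2-Exo lies away from its group in Bcl2, Bcl2l1 and Bad.

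The M2-Exo effects in LPS and in hyperoxia were compared as the interaction over all 12 libraries. This was called for 0 of 9 members by edgeR (background 0.0352% of 14187 genes) and for 0 by DESeq2, with 2 at an unadjusted p under 0.05 (background 9.78%). These were Bad, with an interaction of 0.48 ± 0.17 (log2, SE; effect in LPS minus effect in hyperoxia; unadjusted p = 0.0156, adjusted p = 0.41), and Bax, with -0.15 ± 0.070 (unadjusted p = 0.0475, adjusted p = 0.505). For Bcl2 the interaction was -0.021 ± 0.19 (SE), adjusted p = 0.985. No difference between the injuries in the response of these transcripts to M2-Exo was therefore detected at this depth and number of libraries.

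**Figure D3:**
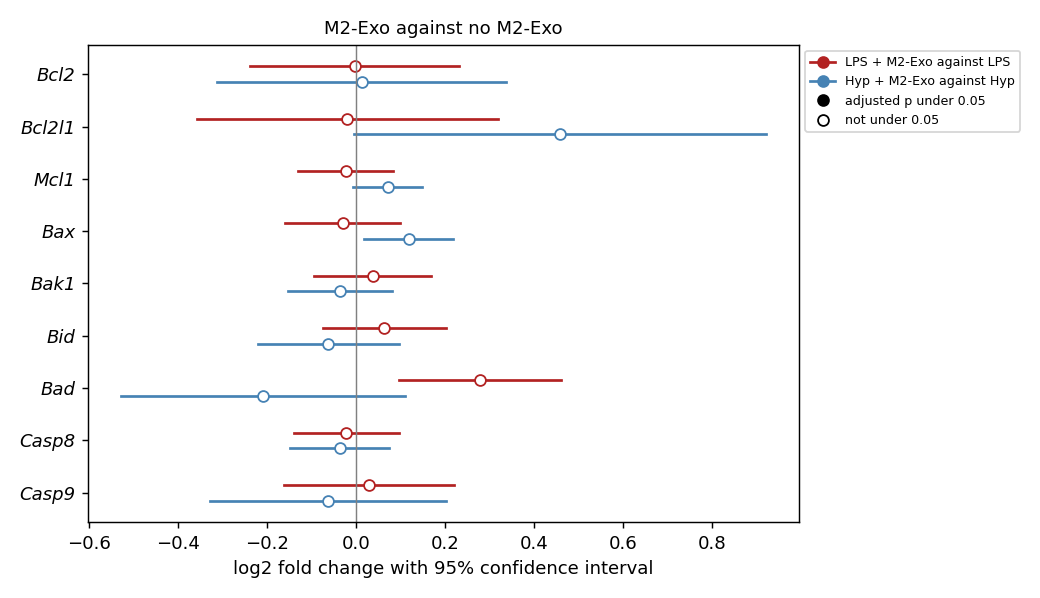
Log2 fold change of each gene with M2-Exo against without it, in LPS (red) and in hyperoxia (blue), as points with 95% confidence intervals (edgeR). All points are open, since no member had an adjusted p under 0.05, and the widest interval is that of Bcl2l1 in hyperoxia.

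Between the injuries, in contrast, the family differed widely, as did most genes. In LPS against Hyp, 6 of 9 members were called by edgeR (background 75.8% of 13805 genes), 4 higher in LPS (background 37.8%) and 2 lower (background 38%), and 7 of 9 did not overlap between the groups (background 78.8%). The members were thus called no more often than genes in general. The median log2 fold change of the 9 was 0.11 and the median size 0.35, against -0.0091 and 0.51 over all genes tested. The LPS and hyperoxia libraries differed in oxygen as well as in LPS, and the parts of the 2 cannot be told apart. The labels do not say whether these libraries were cultured or sequenced together, so a part of that kind cannot be told apart either.

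All 3 anti-apoptotic members were higher in LPS than in Hyp. Bcl2 was 1.81 fold higher (23.7, 25.4 and 21.9 against 13.3, 12.5 and 13.5 CPM), with a log2 fold change of 0.85 ± 0.076 (SE) and an adjusted p of 1.76e-05. Mcl1 was 1.75 fold higher, at 338, 327 and 318 CPM in LPS against 186, 183 and 193 in Hyp (log2 fold change 0.80 ± 0.034, SE; adjusted p = 3.33e-07). Bcl2l1 was 1.27 fold higher, at 29.8, 23.0 and 26.2 CPM against 21.4, 20.3 and 20.4 (log2 fold change 0.35 ± 0.093, SE; adjusted p = 0.00973), and this call was lost in a fit of all 12 libraries (adjusted p = 0.128). In each of the 3 genes every LPS library lay above every Hyp library.

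Bax and Bak1, the pore-forming members, went the other way. This split did not hold for every related gene outside the members. Anti-apoptotic Bcl2l2 was lower in LPS (log2 fold change -0.95 ± 0.11, SE, adjusted p = 8.54e-05). Of the 4 such genes tested, 3 were called higher and 1 lower. Bok was higher (1.08 ± 0.16, SE, adjusted p = 0.000332). Of the 3 other BCL2-like genes tested, 2 were called higher and 1 lower. Bcl2l2 and Bok were named after their values were seen. Bax was 1.33 fold lower in LPS, at 63.3, 71.2 and 66.2 CPM against 87.9, 90.7 and 89.0 in Hyp, with a log2 fold change of -0.41 ± 0.052 (SE) and an adjusted p of 0.000137. Bak1 was 1.1 fold lower, at 81.1 to 90.9 CPM against 92.3 to 96.5 (log2 fold change -0.14 ± 0.048, SE; adjusted p = 0.0318). The Bak1 call was near the threshold. It was lost without LPS replicate 1 (-0.12, adjusted p = 0.0895), LPS replicate 3 (-0.095, 0.113), Hyp replicate 1 (-0.12, 0.0829) or Hyp replicate 3 (-0.15, 0.0592), as well as by DESeq2 (adjusted p = 0.0525) and with no filter on low counts (0.0553).

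Among the BH3-only genes, Bid was at 75.2 to 86.7 CPM in LPS and 76.6 to 90.2 in Hyp (log2 fold change -0.027 ± 0.077, SE; adjusted p = 0.76). Bad was at 21.4 to 25.0 CPM in LPS and 24.2 to 28.3 in Hyp (-0.18 ± 0.085, SE; adjusted p = 0.0819), and passed without LPS replicate 3 (-0.24, adjusted p = 0.0394), without Hyp replicate 1 (-0.24, 0.0401) and with library size alone as the scale (-0.27, 0.0164). The groups overlapped for both genes.

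Of the initiator caspases, Casp9 was 1.5 fold higher in LPS, at 43.9, 43.8 and 45.6 CPM against 25.0, 34.8 and 29.0 in Hyp (log2 fold change 0.59 ± 0.11, SE; adjusted p = 0.00152). Casp8 was at 67.5, 75.0 and 69.3 CPM in LPS and 63.6, 65.3 and 67.4 in Hyp (0.11 ± 0.053, SE; adjusted p = 0.095). The Casp8 groups were separated by a narrow gap, and the difference passed without LPS replicate 1 (0.15, adjusted p = 0.0435).

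The same contrast was read in the libraries with M2-Exo, which share no library with the one above. The limits on oxygen, LPS, culture and sequencing hold for it too. In LPS + M2-Exo against Hyp + M2-Exo, 4 of 9 members were called (background 73.7% of 13660 genes), 3 higher (background 36.5%) and 1 lower (background 37.1%), and 5 of 9 did not overlap (background 77%). Bcl2 was 1.78 fold higher (log2 fold change 0.83 ± 0.16, SE; adjusted p = 0.00143), Mcl1 1.63 fold higher (0.71 ± 0.045; adjusted p = 2.74e-06) and Casp9 1.6 fold higher (0.68 ± 0.090; adjusted p = 0.000197). Bax was 1.48 fold lower (-0.57 ± 0.051, SE; adjusted p = 1.87e-05). These were the 4 members called in both contrasts between the injuries.

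Bcl2l1 and Bak1 did not pass in the libraries with M2-Exo. Bcl2l1 was at 27.4, 20.7 and 29.8 CPM in LPS + M2-Exo and 23.6, 22.7 and 39.5 in Hyp + M2-Exo, with a log2 fold change of -0.14 ± 0.23 (SE), adjusted p = 0.609, which turned to 0.16 (adjusted p = 0.354) without Hyp + M2-Exo replicate 3 and to 0.0085 (0.977) without LPS + M2-Exo replicate 2. Bak1 had -0.067 ± 0.059 (SE), adjusted p = 0.333, and -0.16 (0.0414) with library size alone as the scale. Casp8 had 0.12 ± 0.049 (SE), adjusted p = 0.0539, and Bad 0.30 ± 0.14 (SE), adjusted p = 0.0768. Both passed in a fit of all 12 libraries (0.042 and 0.0409), and Bad also without Hyp + M2-Exo replicate 3 (0.47, adjusted p = 0.00147). Bid had 0.094 ± 0.054 (SE), adjusted p = 0.146.

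**Figure D4:**
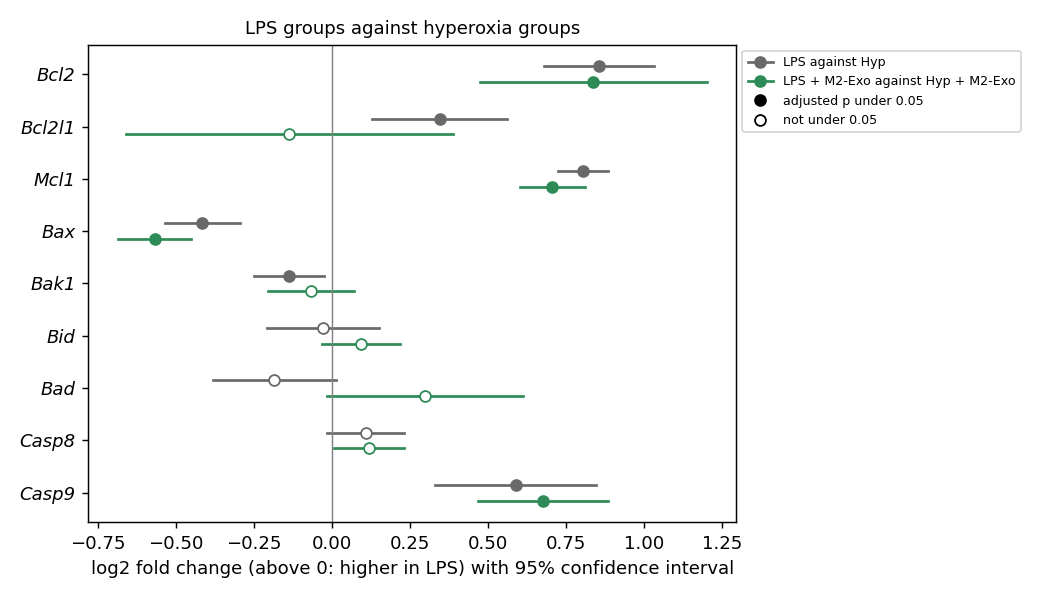
Log2 fold change of each gene in LPS against Hyp (grey) and in LPS + M2-Exo against Hyp + M2-Exo (green), as points with 95% confidence intervals (edgeR), filled where the adjusted p was under 0.05. Bcl2, Mcl1 and Casp9 lie above 0 and Bax below 0 in both contrasts.

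As markers of other cell types moved with this contrast, their values belong beside it. The counts of called markers stand beside a background of 75.8% of 13805 genes called in LPS against Hyp, 37.8% higher and 38% lower in LPS. The summed macrophage markers were 408 to 455 CPM in LPS and 108 to 114 in Hyp, and 9 of the 11 tested were called higher in LPS and 1 lower. The summed alveolar type II markers were 435 to 446 against 249 to 264 CPM, with 6 of 8 tested higher and 2 lower, and the summed fibroblast markers 812 to 837 against 329 to 357 CPM, with 3 of 5 higher. The summed epithelial markers went the other way, at 656 to 696 against 875 to 893 CPM, most of it Krt19 (log2 fold change -0.57), although 3 of 4 tested were called higher and 1, Krt19, lower. The summed endothelial markers were 24.3 to 27.0 against 13.1 to 16 CPM, with 1 of 4 tested higher and 3 lower. Fewer cells of a type and less RNA per cell cannot be told apart in bulk samples, and the part of these markers in the differences of the 9 genes was not tested.

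The Bcl2 to Bax ratio, often read as a balance of survival and death signals, was formed from FPKM in each library and is given as a description. Bcl2 stood at 2.87% to 3.24% of Bax in LPS, at 2.83% to 3.67% in LPS + M2-Exo, at 1.19% to 1.31% in Hyp and at 0.872% to 1.37% in Hyp + M2-Exo. On the log2 scale the means were -5.03 ± 0.09, -5.01 ± 0.21, -6.30 ± 0.076 and -6.43 ± 0.36 (SD, n = 3). With M2-Exo the mean differed by 0.023 in LPS and by -0.13 in hyperoxia, both under the larger SD of the groups compared, and the latter was 0.081 without Hyp + M2-Exo replicate 3. Between LPS and Hyp it differed by 1.3, and the lowest LPS library was above the highest Hyp library.

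The ratio of Mcl1 to Bax followed the same division. Mcl1 was at 98.9% to 115% of Bax in LPS and 103% to 111% in LPS + M2-Exo, and at 43.6% to 46.9% in Hyp and 42.2% to 45.8% in Hyp + M2-Exo. Per length of the merged exons, these shares became 211% to 246% in LPS and 93.2% to 100.0% in Hyp, those of Bcl2 5.69% to 6.44% and 2.37% to 2.6%, and those of Bcl2l1 11.1% to 16.2% and 7.7% to 8.37%. From FPKM, Bcl2l1 was at 2.36% to 3.44% of Bax in LPS, 2.37% to 3.29% in LPS + M2-Exo, 1.64% to 1.78% in Hyp and 1.73% to 2.84% in Hyp + M2-Exo, where the highest value was again that of replicate 3. The Mcl1 ratio thus separated the LPS from the hyperoxia libraries with and without M2-Exo, and the Bcl2l1 ratio did so only without M2-Exo.

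The promoters of the 4 members called in both contrasts are shown because 3 of these genes were higher and 1 was lower in LPS. RefSeq windows (GRCm38.p6) of 250 bases before to 50 after the start were present for all 9 members and were searched on both strands for GGGCGG (GC box), TGACGTCA (CRE), TGANTCA (AP-1), CACGTG (E box) and, by name, the NF-kB motif and the p53 decamer, of which a full p53 site holds a pair. These were held by 35.7%, 1.79%, 7.81%, 7.15%, 8.46% and 8.36% of 32851 promoters. The windows are Bcl2 chr1:106714241-106714540 (- strand), Mcl1 chr3:95658471-95658770 (+ strand), Bax chr7:45466849-45467148 (- strand) and Casp9 chr4:141793362-141793661 (+ strand), and capitals mark every match.
Bcl2: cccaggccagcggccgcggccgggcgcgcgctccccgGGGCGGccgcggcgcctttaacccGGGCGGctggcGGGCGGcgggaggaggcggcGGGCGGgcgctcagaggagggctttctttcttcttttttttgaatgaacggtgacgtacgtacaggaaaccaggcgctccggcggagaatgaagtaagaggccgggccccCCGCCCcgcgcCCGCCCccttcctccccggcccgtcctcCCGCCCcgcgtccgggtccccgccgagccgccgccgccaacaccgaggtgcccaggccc
Mcl1: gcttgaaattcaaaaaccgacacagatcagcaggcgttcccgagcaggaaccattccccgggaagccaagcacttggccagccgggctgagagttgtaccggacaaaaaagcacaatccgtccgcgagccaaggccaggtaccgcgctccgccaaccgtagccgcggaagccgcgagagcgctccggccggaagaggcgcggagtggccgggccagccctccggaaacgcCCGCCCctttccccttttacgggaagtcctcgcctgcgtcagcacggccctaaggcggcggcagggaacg
Bax: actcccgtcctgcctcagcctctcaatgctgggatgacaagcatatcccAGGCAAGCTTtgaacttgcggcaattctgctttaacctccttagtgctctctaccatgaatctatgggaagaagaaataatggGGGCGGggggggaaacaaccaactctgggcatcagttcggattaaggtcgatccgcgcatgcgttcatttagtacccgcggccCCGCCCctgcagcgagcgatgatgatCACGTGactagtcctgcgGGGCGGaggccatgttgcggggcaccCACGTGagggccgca
Casp9: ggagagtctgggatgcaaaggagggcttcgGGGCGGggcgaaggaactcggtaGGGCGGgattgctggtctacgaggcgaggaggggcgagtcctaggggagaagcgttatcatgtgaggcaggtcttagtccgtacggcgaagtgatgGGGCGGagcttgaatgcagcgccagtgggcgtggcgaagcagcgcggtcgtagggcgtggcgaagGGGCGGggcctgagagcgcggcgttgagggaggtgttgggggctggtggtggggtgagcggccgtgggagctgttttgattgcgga
GC boxes numbered 7 in Bcl2, 1 in Mcl1, 3 in Bax and 4 in Casp9. Bax also held 2 E boxes and 1 single p53 decamer, and no match of the other motifs was found in these 4 windows. The matches are a description of the letters only.

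The genes most like Bcl2 across the 12 libraries, among 9751 with a mean of at least 10 CPM, were Lgals1, H2afy2 and Lrsam1 (Pearson r of log2 CPM 0.982 each), and those most like Bax were Cenpn and Zmym6 (0.99) and Rnpc3 (0.989). The libraries fall into an LPS and a hyperoxia set, so these correlations describe mainly the step between them.

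The other genes of the pathway gave the same division of the comparisons. Of 58 listed apoptosis genes outside the 9, 52 were tested in LPS + M2-Exo against LPS and 51 in Hyp + M2-Exo against Hyp, and edgeR called 0 in both (backgrounds 0.187% and 0.101%), with 5 and 2 at an unadjusted p under 0.05 (backgrounds 11.1% and 8.48%), no more often than genes in general. The genes at an unadjusted p under 0.05 are named as values that did not pass. In LPS these were Bcl2a1d (log2 fold change -0.54), Bcl2a1b (-0.52), Pmaip1 (-0.75) and Cflar (-0.26), lower with M2-Exo, and Bcl2l11 (0.31), higher, and in hyperoxia Mdm2 (0.14) and Bok (0.35), both higher, all named after their values were seen. Their adjusted p-values ran from 0.155 to 0.573. Pmaip1, with the largest of these changes, had few counts, at 29 to 37 a library in LPS and 16 to 19 in LPS + M2-Exo. The summed macrophage markers were 320 to 368 CPM in LPS + M2-Exo against 408 to 455 in LPS, and the median of their log2 fold changes was -0.32. Of the 10 tested, 0 were called (smallest adjusted p = 0.146 by edgeR) and 6 had an unadjusted p under 0.05 (background 11.1%). Mrc1, a marker of M2 macrophages, had a log2 fold change of 0.59 (adjusted p = 0.578). It had 12 to 18 counts a library in LPS and 11 to 25 in LPS + M2-Exo. The part of the macrophage markers in the Bcl2a1 values was not tested.

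In LPS against Hyp, 44 of 53 tested apoptosis genes were called (29 higher and 15 lower in LPS), and with M2-Exo 43 of 53 (29 and 14), beside backgrounds of 75.8% and 73.7%. The median log2 fold change of these genes was 0.33 in LPS against Hyp. By list, the called genes in LPS against Hyp were 3 higher and 1 lower of 4 anti-apoptotic genes, 2 and 1 of 3 other BCL2-like genes, 4 and 2 of 7 BH3-only genes, 7 and 3 of 11 death receptors, ligands and adaptors, 3 and 1 of 5 inhibitors of apoptosis, 2 and 2 of 7 executioner and other caspases, 3 and 3 of 9 genes of mitochondrial release and the apoptosome, and 5 and 2 of 7 upstream regulators.

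In LPS against Hyp, the largest differences among these apoptosis genes with at least 50 counts on average were those of Hrk and Bmf, both BH3-only genes, and Bmf was close to Bcl2a1d and Tnf. Hrk had 5 to 8 counts a library in LPS and 170 to 210 in Hyp, and Bmf 274 to 312 in LPS and 38 to 42 in Hyp. These 4 genes reached the mean of 50 counts only through the group where they were high, so their order is a description. Hrk, a BH3-only gene best known from neurons, was at 0.275 to 0.431 CPM in LPS and 6.82 to 9.21 in Hyp (log2 fold change -4.45 ± 0.22, SE; adjusted p = 7.28e-07), and Bmf, which in other cells responds to loss of attachment, was at 14.7 to 17.1 CPM in LPS and 1.61 to 1.68 in Hyp (3.27 ± 0.11; adjusted p = 9.3e-08). Bnip3, a mitochondrial protein induced by low oxygen and active in mitophagy, was higher in LPS by 1.60 ± 0.11 (SE). Of the 7 BH3-only genes tested outside the 9, 6 were called (background 75.8%), 4 higher and 2 lower. Each of these log2 fold changes was larger in size than those of Bid and Bad. The smallest, that of Bbc3 (-0.26 ± 0.082, SE), was close to that of Bad (-0.18 ± 0.085). Bbc3 was named after its values were seen. Pmaip1 was not called (log2 fold change 0.10, adjusted p = 0.77).

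Higher in LPS were also Bcl2a1d (3.20 ± 0.23, SE) and Bcl2a1b (2.87 ± 0.14), anti-apoptotic genes of blood cells whose near-identical copies make the counts of each uncertain, Tnf (3.11 ± 0.15), the death receptor ligand, Birc3 (2.12 ± 0.13), which encodes the inhibitor cIAP2, and Tnfrsf25 (1.94 ± 0.16), a death receptor. Bcl2a1b (26 to 31 counts a library in Hyp) and Tnfrsf25 (33 to 53) also reached the mean of 50 counts only through the LPS group. Their place among the largest differences is likewise a description. With M2-Exo the same 8 genes gave -3.85 (Hrk), 2.96 (Bmf), 1.72 (Bnip3), 3.35 (Bcl2a1d), 2.65 (Bcl2a1b), 3.25 (Tnf), 1.91 (Birc3) and 2.23 (Tnfrsf25), all called, and Bcl2a1d and Tnf there exceeded Bmf. Bcl2a1 and Tnf are transcribed in macrophages, whose summed markers were 408 to 455 CPM in LPS and 108 to 114 in Hyp. The part of these markers in the differences of Bcl2a1 and Tnf was not tested. Trp53, which encodes p53, was higher in LPS by a log2 fold change of 0.46 ± 0.053 (SE), and Mdm2, a target of p53, was lower by -0.98 ± 0.050 (SE). Both differences were named after their values were seen.

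**Figure D5:**
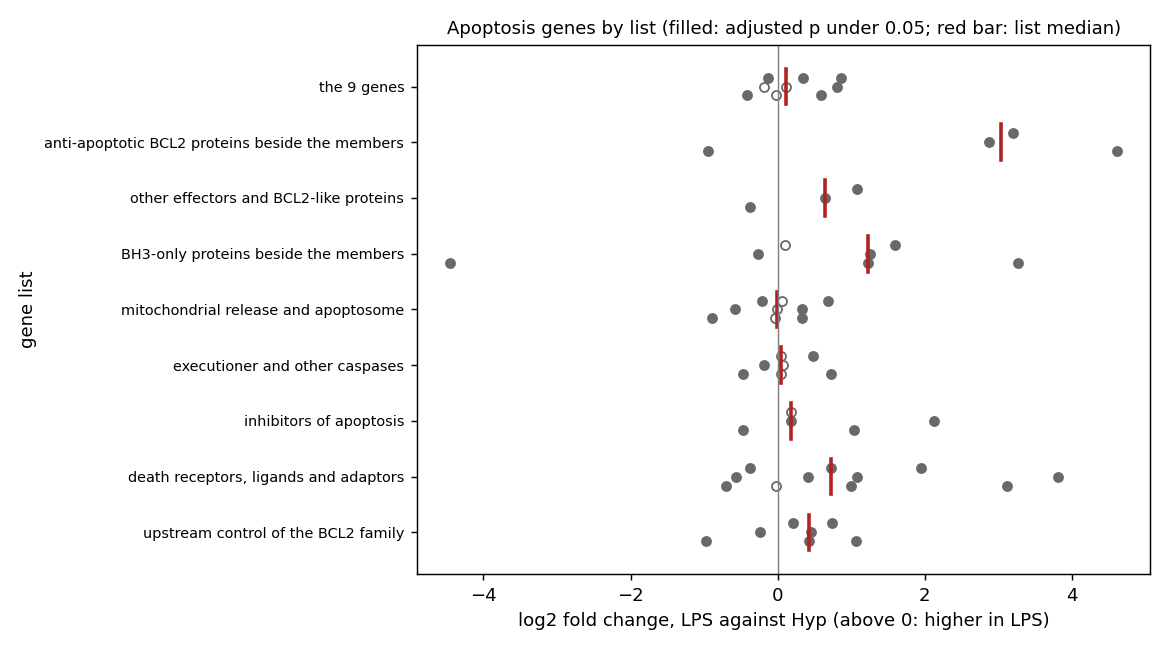
Log2 fold change in LPS against Hyp of the 9 genes and of the other apoptosis genes by list, filled where the adjusted p was under 0.05 (edgeR), with a red bar for the median of each list. Genes of nearly every list lie on both sides of 0, and the 9 genes span a narrower range than the BH3-only genes beside them.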

How the data were processed

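RNA of the 12 libraries was sequenced on an Illumina NovaSeq platform after poly(A) selection. After quality filtering (Seqtk) and alignment (HISAT2 2.0.4), the authors deposited raw read counts and FPKM for 34745 genes. StringTie 1.3.0, edgeR and the build GRCm38 are named in the submitters' processing notes; the counting program and annotation are not given in the sources used here. The deposited FPKM divide the counts by gene length and library total. They were used only to compare genes and to form ratios. From the counts, CPM were computed with TMM factors of all 12 libraries.

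Counts were tested in R 4.3.3 with edgeR 4.0.16 (TMM, filterByExpr, quasi-likelihood F test), in a separate fit of the 6 libraries for each comparison and with all 12 for the interaction. P-values were adjusted by Benjamini-Hochberg over all genes tested, with a threshold of 0.05. The common biological coefficient of variation was 8.78% to 9.41%. The fit was tested on simulated data. Alternatives were RLE, library size alone, no filter, at least 10 counts in every library, DESeq2 1.42.0, 1 fit of all 12 libraries, a replicate block and each library left out. Members, lists and comparisons were chosen with earlier results of these data known. Outside the 9 genes, apoptosis genes were named if called with a mean of at least 50 counts, up to 8 a comparison by size, or for the level in a list. Others were named after their values were seen, as stated where they appear.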

Additional observations from a re-analysis of the deposited data

How the results depend on the processing

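The counts of members called in the 5 comparisons stayed within 1.5 times the values given, or at 0, under all alternatives run: 0 in both M2-Exo comparisons and for the interaction, 5 to 7 in LPS against Hyp and 4 to 6 with M2-Exo. Calls of Bcl2, Mcl1, Bax and Casp9 between the injuries held under every alternative.

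Same-numbered libraries had correlations of their deviations from -0.00327 to 0.0791, and differently numbered ones from -0.0655 to 0.0613. In LPS against Hyp the same-numbered values were 0.0791, 0.0269 and 0.0756, and all differently numbered ones were negative. Deviations from a group mean cancel within the group, so the negative values follow in part from the positive ones. With values this weak and 3 libraries a group, whether the replicate numbers pair the libraries could not be decided. With the replicate block, the members called were 0, 0, 5, 4 and 0 in the 2 M2-Exo comparisons, the 2 between injuries and the interaction, Bak1 in LPS against Hyp lost its call (adjusted p = 0.0503), and Bcl2 in Hyp + M2-Exo against Hyp turned to -0.0034. All genes called fell with the block from 25 to 6 in LPS and from 14 to 8 in hyperoxia. DESeq2 called 130 and 37 and the fit of all 12 libraries 12 and 2. For the interaction the genes called were 5, with 3 under the block, 13 with no filter and 70 by DESeq2.

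Members that did not pass changed sign when a library was left out, with these ranges of the log2 fold change. In LPS + M2-Exo against LPS they were Bcl2 from -0.11 to 0.049, Bcl2l1 from -0.13 to 0.12, Mcl1 from -0.063 to 0.016, Bax from -0.071 to 0.015, Bak1 from -0.0042 to 0.079, Casp8 from -0.056 to 0.021 and Casp9 from -0.028 to 0.12. In Hyp + M2-Exo against Hyp they were Bcl2 from -0.098 to 0.16, Bid from -0.11 to 0.012 and Casp9 from -0.17 to 0.068. In LPS against Hyp they were Bid from -0.082 to 0.038. In LPS + M2-Exo against Hyp + M2-Exo they were Bcl2l1 from -0.28 to 0.16. For the interaction they were Bcl2 from -0.17 to 0.087, Casp8 from -0.026 to 0.053 and Casp9 from -0.044 to 0.2. With no filter on low counts, Casp8 in the interaction was -0.0011. The cause of these changes was not tested.

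Bcl2 and Bcl2l1 had 213 to 824 counts a library. Their coefficients of variation were 3.91% and 2.98% in Hyp and 20.1% and 33.1% in Hyp + M2-Exo, and their intervals in hyperoxia reached 1.26 and 1.89 fold. With 3 libraries a group, smaller changes may have been missed. Library size alone as the scale moved the median of all genes in LPS against Hyp from -0.0091 to -0.099, and the share of called genes that were higher from 49.8% to 43.9%.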
